A study of Sus scrofa with 4 samples.

Results

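Annexins are cytosolic proteins that bind acidic phospholipids in membranes when calcium rises, through a core of repeated domains that the family shares, while each member has its own N-terminal region. They take part in vesicle traffic, in the sealing of damaged membrane and in linking membrane to the actin cytoskeleton, and several pair with small calcium-binding proteins of the S100 family. An egg activated without sperm and the cleaving embryo that follows use calcium signals and rapid membrane turnover, processes in which annexins can act. ANXA1 is best known as an anti-inflammatory protein of leukocytes and epithelia that signals through formyl peptide receptors when it is released. The family described here was set by a list of 10 annexin names, chosen by the measured level of ANXA1, which stood lower in the treated embryos of this same comparison. Of these, 7 names (ANXA1, ANXA2, ANXA4, ANXA5, ANXA6, ANXA7 and ANXA10) each had a row of that name among the 35248 rows of the gene table. ANXA8 and ANXA11 had rows without a name and were identified by the NCBI gene number given with them, which makes 9 rows described, and for ANXA3 no row was found.

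The embryos were porcine parthenotes, grown from oocytes that an electric pulse had activated, without a paternal genome. All of them were held in PZM-3 embryo medium with cytochalasin B for 3 h, a step that blocks cytokinesis, then cultured for 48 h and sequenced at the 4-cell stage. The treated group (2 libraries) received 50 µM Bobcat339, a cytosine-based inhibitor of the TET dioxygenases, which oxidise 5-methylcytosine in DNA. The control group (2 libraries) received the solvent DMSO. The question set by the series is how TET inhibition alters gene expression in these embryos. Embryo number per library, the origin of the oocytes and whether the replicates came from separate cultures are not given in the sources used here. The p-values therefore weigh differences against the spread between these libraries alone, part or all of which can be technical.

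The libraries held 13568525 to 14681221 counts, so 3 counts, the level that a count of 0 allows, correspond to 0.204 to 0.221 CPM, the usual unit of a count relative to its library's total. The oocyte growth factor BMP15 and the oocyte kinase WEE2 stood at 4279 and 4160 CPM over the 4 libraries. The 11 oocyte and embryo markers measured summed to 13037 to 16667 CPM per library. Abundant members carried that sum, while ZAR1 and FIGLA stood at 0.831 and 0.832 CPM. Both treated libraries lay below both controls in 2 of the 11 (ZP3 and KPNA7, the latter with a log2 fold change of −0.77), where 16% of all genes tested did. ZAR1, FIGLA, ZP3 and KPNA7 were named after their values were seen. The control pair was less alike than the treated pair, with a Pearson correlation across genes of log2 CPM of 0.959 against 0.976. Between the groups 0 of 18481 genes tested passed a Benjamini-Hochberg adjusted p of 0.05 in edgeR's quasi-likelihood test (0%). At the same adjusted p limma-voom passed 0 and DESeq2 passed 5 of 30007 (0.0167%), none of them an annexin. Unadjusted p-values under 0.05 numbered 740 of 18481 in edgeR (2.64% lower and 1.36% higher), 646 of 18481 in limma-voom and 558 of 30007 in DESeq2. No effect of the treatment is read from these counts. Without control 1 edgeR passed 586 genes and without control 2 it passed 494, the single control left being assumed to vary as the treated pair did.

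Among the 9 annexin rows described, 4 transcripts stood well above the others per length: ANXA5, ANXA2, ANXA7 and ANXA11. ANXA9, which is outside the list, and ANXA3, which had no row, are not part of this comparison. Levels were compared between genes on the authors' FPKM, a fragment count scaled by library size and gene length, which corrects for gene length. ANXA5, whose protein binds the phosphatidylserine exposed on dying cells, had the highest median, 19.2 FPKM (lowest 15.2, highest 22.1 over the 4 libraries). ANXA2, a partner of plasma membrane actin and of endosomes, followed at 17.5 FPKM (13.7 to 21.3). ANXA7, first described as a protein that fuses secretory granules, had 15.3 FPKM (11.9 to 17.9), and ANXA11, which links RNA granules to lysosomes and acts in the last step of cytokinesis, 13.2 FPKM (12.6 to 16.8). The ranges of each neighbouring pair among these 4 overlapped, so their order was not separated by the spread between libraries.

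ANXA6, which carries a doubled annexin core, stood at 0.835 FPKM (0.465 to 1.25), and its range did not overlap that of ANXA11. ANXA1 had a median of 0.283 FPKM (0.0687 to 0.774) and ANXA4, an annexin of epithelia, 0.155 FPKM (0.0473 to 0.427). These medians pool both groups, and for ANXA1 no library lay near its median: it was at 0.0794 and 0.0687 FPKM with Bobcat339 and at 0.486 and 0.774 FPKM in the controls. In control 2 ANXA1 stood above ANXA6 (0.465 FPKM). Without either control library, but not without either treated one, the order of ANXA1 and ANXA4 turned round. ANXA10 and ANXA8 were at the edge of detection, with 3 and 5 counts over the 4 libraries. In sum the 9 rows reached 57.4 and 66.4 FPKM in the Bobcat339 libraries and 64.5 and 79.6 FPKM in the controls. The 4 abundant annexins made up 97.4% to 98.3% of that sum in each library, and ANXA1 0.104% to 0.973%.

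**Figure D1:**
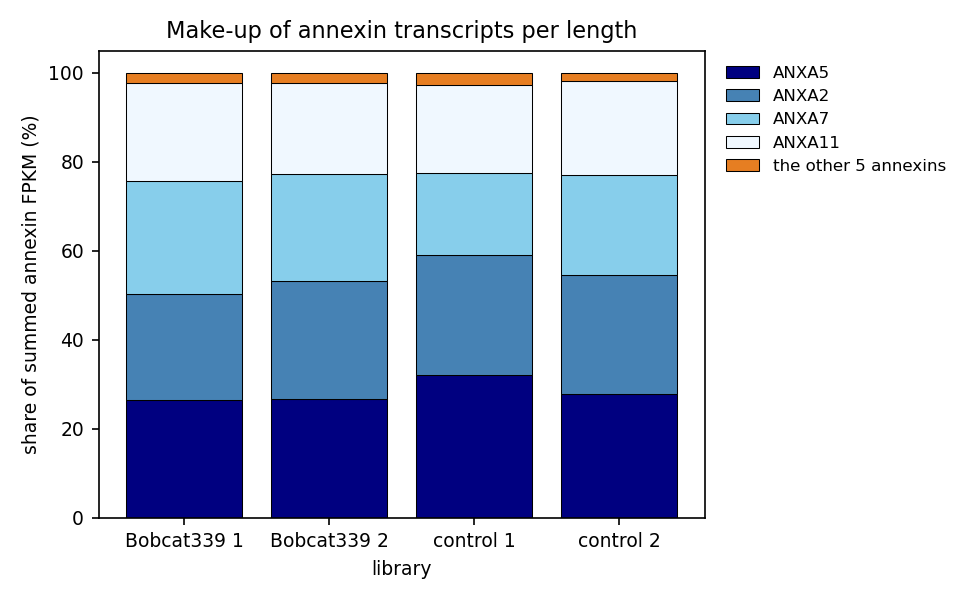
Share of the summed FPKM of the 9 annexin rows (vertical axis, percent) taken by ANXA5, ANXA2, ANXA7, ANXA11 and the other 5 together, in each of the 4 libraries (horizontal axis). The 4 abundant annexins fill 97.4% to 98.3% of every bar.

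ANXA1 (ENSSSCG00000005267, chromosome 1: 226413516 to 226431961, plus strand) was a rare transcript in every library. It had 5 and 4 counts in Bobcat339 libraries 1 and 2, and 30 and 46 counts in control libraries 1 and 2. Scaled by TMM, the trimmed mean of M values, these were 0.341 and 0.291 CPM against 2.15 and 3.29 CPM. Both treated libraries lay below both controls, and close to the level of 3 counts. The exact Poisson 95% intervals, which cover counting error only, were 1.62 to 11.7 and 1.09 to 10.2 counts in the treated libraries and 20.2 to 42.8 and 33.7 to 61.4 counts in the controls. Mean levels were 0.316 ± 0.0348 CPM with Bobcat339 and 2.72 ± 0.809 CPM with DMSO (SD, n = 2 per group), a control level 8.61-fold that of the treated embryos.

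That difference is the reason the family was chosen, so it is given as a description and no p is printed for it. The fitted log2 fold change was −3.07, the value at place 12 of 18481 from the lowest, while ANXA1 held place 15065 of 18481 by mean level. With each library left out in turn it lay between −3.34 (without control 1) and −2.70 (without control 2). ANXA1 entered the fit through the controls alone: the filter asked for at least 0.708 CPM in 2 libraries, which 2 control and 0 treated libraries reached. A lower level in the embryos' own cells and a smaller share of any cells that carry ANXA1 cannot be told apart in such bulk libraries.

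Sums of the cumulus and granulosa, blood and immune, and epithelial and trophectoderm marker lists overlapped between the groups. Such sums weigh abundant genes most and do not measure the share of a cell type. The 19 cumulus and granulosa cell markers measured summed to 159 and 185 CPM in the Bobcat339 libraries and 163 CPM in each control, a sum carried by its abundant members. Both treated libraries lay below both controls in 2 of the 11 tested (DCN and TNFAIP6), where 16% of all genes tested did. They lay above both in 0 of the 11, where 13.3% of all genes tested did. Among the markers not tested, COL3A1 stood lower in both treated libraries, at 0 and 4 counts against 9 and 5 counts. The granulosa factor FOXL2, also not tested, stood higher, at 1 and 6 counts against 0 and 0 counts. The granulosa hormone AMH was at 0 counts in all libraries, and 9 of the 19 (AMH included) stayed under 1 CPM in each one. VCAN, a matrix proteoglycan of the cumulus, and the intermediate filament VIM led the list at 72.0 and 39.8 CPM, with log2 fold changes of 0.09 and 0.08. TNFAIP6, a matrix protein of the expanding cumulus, was rare and stood lower with Bobcat339, at 0.477 and 0.291 CPM against 1.72 and 1.57 CPM. Its log2 fold change was −2.07 (edgeR adjusted p = 0.999). Only the controls reached the filter level of 0.708 CPM, so TNFAIP6, like ANXA1, entered the fit through them and is described only. Blood and immune markers, 10 in number, summed to 16.7 and 19.9 CPM with Bobcat339 and 19.3 and 14.2 CPM in the controls. Of the 10, 0 were at 0 counts throughout and 4 stayed under 1 CPM. Of the 6 tested, 2 (CD14 and PTPRC) had both treated libraries lower and 0 had both higher. CD74 and CD14, proteins of antigen-presenting and myeloid cells, led them at 4.75 and 4.48 CPM (log2 fold changes of 0.74 and −0.23). PTPRC, the common leukocyte antigen CD45, had 0.341 and 0.947 CPM with Bobcat339 and 1.22 and 1.79 CPM in the controls (log2 fold change −1.22; edgeR adjusted p = 0.999). TNFAIP6, DCN, COL3A1, FOXL2, PTPRC, GATA2 and CDX2 were named after their values were seen. Epithelial and trophectoderm markers, 9 in number, summed to 1423 and 1360 CPM against 1468 and 1268 CPM. The adhesion proteins CDH1 (1186 CPM, log2 fold change 0.05) and EPCAM (112 CPM, −0.19) made up most of each sum. Of the 9, 0 had both treated libraries lower, 0 were at 0 throughout, and KRT8 and CDX2 stayed under 1 CPM. Both treated libraries lay above both controls in 1 of the 8 tested, GATA2, where 13.3% of all genes tested did. GATA2 had 6.20 and 8.45 CPM with Bobcat339 and 3.30 and 4.87 CPM in the controls (edgeR adjusted p = 0.999). CDX2, not tested, also stood higher, at 3 and 4 counts against 0 and 1 counts. Whether cells of these types had a part in the ANXA1 counts was not tested.

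**Figure D2:**
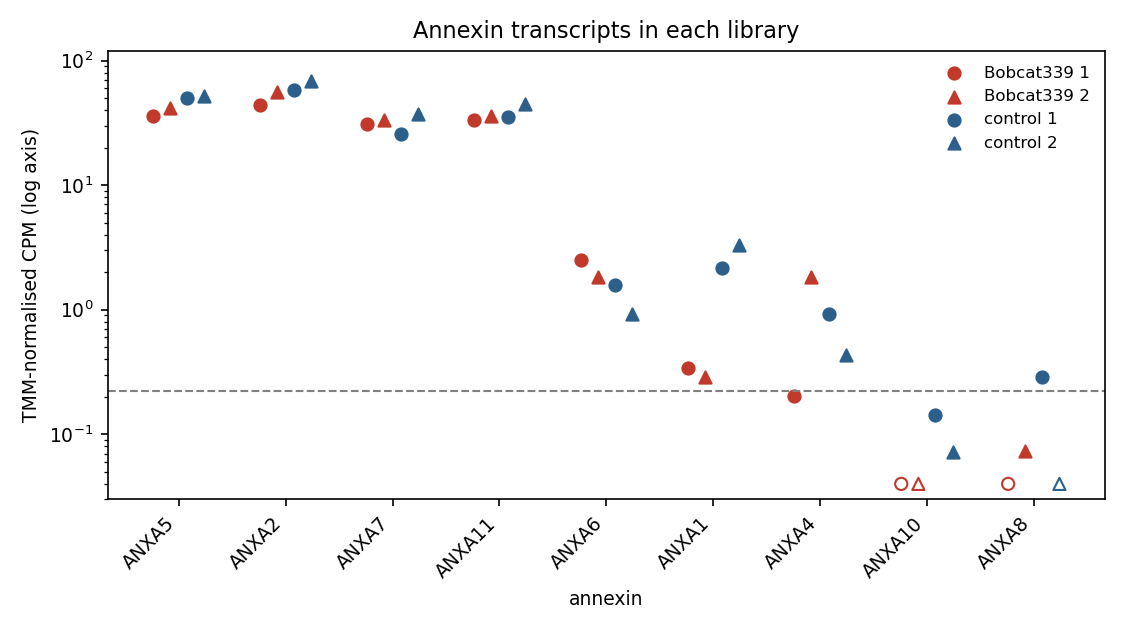
TMM-normalised CPM (vertical log axis) of the 9 annexins (horizontal axis, ordered by median FPKM) in each library: red for Bobcat339, blue for control, circles for replicate 1, triangles for replicate 2. Open symbols at the lower edge mark 0 counts and the dashed line is the level of 3 counts, 0.221 CPM in the smallest library; CPM is not corrected for length, so it is read across libraries within a gene. ANXA1 is at 0.341 and 0.291 CPM with Bobcat339 and at 2.15 and 3.29 CPM in the controls.

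The abundant plasma membrane annexins ANXA2 and ANXA5 had lower means in treated embryos, by amounts that the test did not separate from the spread between replicates. ANXA5 (ENSSSCG00000009097, chromosome 8: 102387828 to 102421352, plus strand) stood at 35.9 and 41.5 CPM with Bobcat339 and 50.3 and 51.7 CPM in the controls. The groups did not overlap, and the controls were close to each other. Its log2 fold change was −0.40 (95% interval −1.03 to 0.24; edgeR adjusted p = 0.999), and −0.46 to −0.30 with a library left out. ANXA2 (ENSSSCG00000004578, chromosome 1: 111588306 to 111635100, plus strand) stood at 44.1 and 56.0 CPM with Bobcat339 and 58.0 and 68.4 CPM in the controls. Bobcat339 2 lay just under control 1, and without a scaling factor they changed places (56.7 against 56.3 CPM). The log2 fold change of ANXA2 was −0.34 (95% interval −0.97 to 0.30; edgeR adjusted p = 0.999). It was −0.18 without Bobcat339 1, −0.19 without control 2, −0.47 without Bobcat339 2 and −0.45 without control 1.

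The granule and cytokinesis annexins ANXA7 and ANXA11 overlapped between the groups. ANXA7 (ENSSSCG00000010299, chromosome 14: 76205195 to 76234645, minus strand) had 30.9 and 33.2 CPM in the treated libraries and 25.9 and 37.4 CPM in the controls, which lay on either side. Its log2 fold change was 0.02 (95% interval −0.66 to 0.69; edgeR adjusted p = 0.999), −0.23 without control 1 and 0.33 without control 2. ANXA11 (ENSSSCG00000010331, chromosome 14: 81835194 to 81879565, plus strand) had 33.4 and 36.0 CPM with Bobcat339 and 35.0 and 44.5 CPM in the controls, where control 2 alone was high. Its log2 fold change was −0.20 (95% interval −0.85 to 0.46; edgeR adjusted p = 0.999), and 0.02 without control 2. The intervals of these 4 abundant annexins leave room for differences of the widths given, so equal levels are not shown.

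Among the rare annexins, ANXA6 stood on the other side of the controls from ANXA1. ANXA6 (ENSSSCG00000017089, chromosome 16: 71867413 to 71913379, plus strand) had 37 and 25 counts with Bobcat339 and 22 and 13 counts in the controls, which are 2.52 and 1.82 CPM against 1.58 and 0.931 CPM. Both treated libraries were above both controls, but the log2 fold change of 0.79 did not pass (95% interval −0.42 to 1.99; edgeR adjusted p = 0.999). ANXA4 (ENSSSCG00000008336, chromosome 3: 72620712 to 72694552, minus strand) varied most within a group, with 3 and 25 counts in the treated libraries and 13 and 6 counts in the controls. The treated libraries thus differed from each other by −3.16 on the log2 scale (replicate 1 over 2), more than the fitted difference between groups of 0.56 (95% interval −1.27 to 2.38; edgeR adjusted p = 0.999). ANXA4 turned to −1.64 without Bobcat339 2 and to −0.05 with limma-voom.

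ANXA10 (ENSSSCG00000030058, chromosome 14: 21249054 to 21315131, minus strand), an annexin of gastric mucosa, had 0 and 0 counts with Bobcat339 and 2 and 1 counts in the controls. ANXA8 (ENSSSCG00000010370, chromosome 14: 88319211 to 88337496, minus strand), an epithelial annexin, had 0 and 1 counts against 4 and 0 counts. Neither reached the filter, and no difference was detectable at this depth. All positions are printed as deposited, on Sscrofa11.1. None of the 9 annexin spans overlapped another row of the table.

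Across the family, 7 of the 9 rows were tested, and ANXA1 only because of its control level. Leaving ANXA1 aside, 0 of 6 tested annexins passed by edgeR, limma-voom or DESeq2 and 0 had an unadjusted edgeR p under 0.05, where 2.64% of all genes were lower and 1.36% higher at that level. Of these 6, 3 had a log2 fold change above 0 and 3 below 0, where 52.9% of all genes were below 0. The median was −0.09, and over all genes tested it was −0.02. In 2 of the 6 (ANXA2 and ANXA5) both treated libraries lay below both controls and in 1 (ANXA6) above, against 16% and 13.3% of all genes. These counts describe the family and nothing particular to it is read from them.

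**Figure D3:**
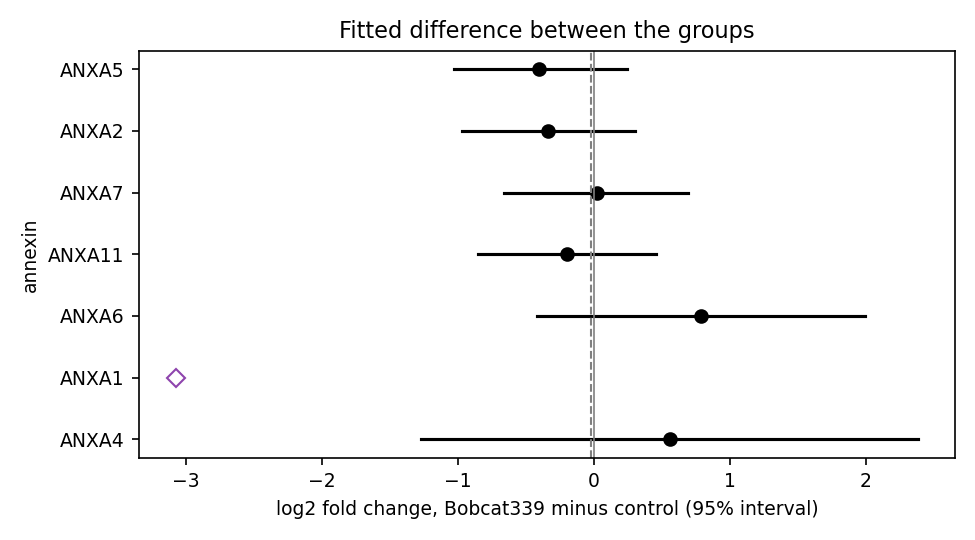
Log2 fold change of Bobcat339 minus control (horizontal axis) for the 7 tested annexins (vertical axis), with 95% intervals from the edgeR fit; the dashed line is the median of all genes, −0.02. ANXA1, the open diamond at −3.07, chose the family and has no interval, and the intervals of the other 6 all include 0.

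**Figure D4:**
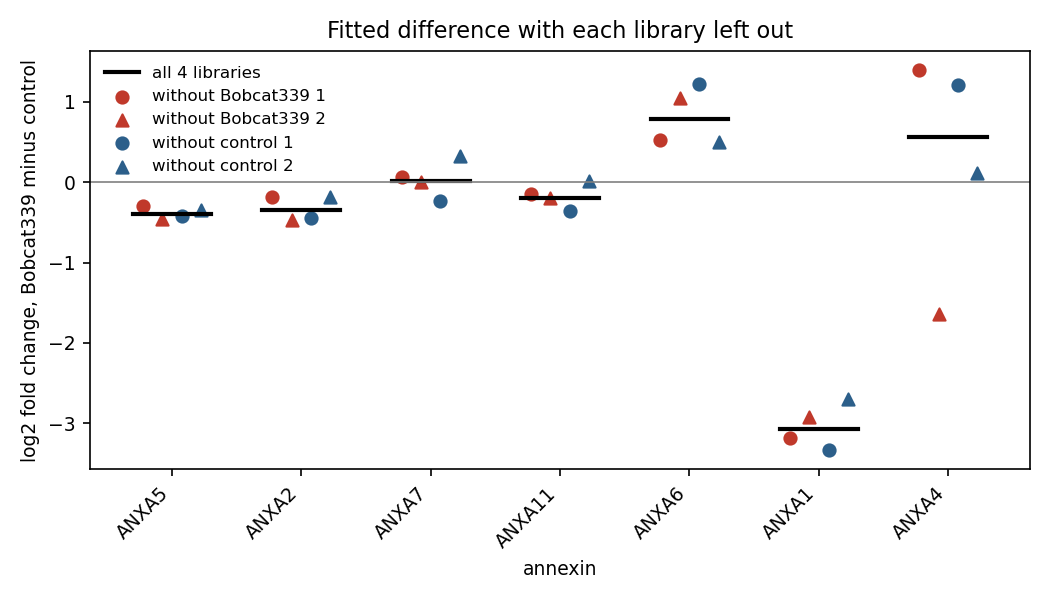
Log2 fold change of Bobcat339 minus control (vertical axis) for the 7 tested annexins (horizontal axis) with all 4 libraries (black bar) and with each library left out (symbols). ANXA1 stays between −3.34 and −2.70, ANXA4 runs from −1.64 to 1.40, and ANXA7, ANXA11 and ANXA4 change sign.

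Genes whose profile over the 4 libraries was most like that of ANXA1 were GPR85, an orphan receptor, LHX5, a LIM homeobox factor, and NR4A2, an orphan nuclear receptor. Likeness was the Euclidean distance between log2 CPM profiles centred on each gene's mean, among 8774 genes of at least 5 CPM, and was 0.85, 1.30 and 1.48 for the 3. GPR85 had 1.98 and 2.19 CPM with Bobcat339 and 8.03 and 8.16 CPM in the controls. All 3 were higher in both controls than in either treated library, which follows from their choice by likeness to ANXA1 and is no separate result. With 4 libraries many genes can share such a profile. The nearest annexins were ANXA5 and ANXA2, at distances of 2.26 and 2.32, and the farthest was ANXA6 at 3.49. ANXA9, outside the list, lay at 2.33, and ANXA7, whose log2 fold change was 0.02, at 2.66. No likeness to ANXA1 is therefore read from the distances of ANXA5 and ANXA2.

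S100 proteins bind the N-terminal regions of annexins, S100A10 that of ANXA2 and S100A11 that of ANXA1. S100A10 had 4.33 and 8.81 FPKM with Bobcat339 and 3.73 and 3.20 FPKM in the controls, beside ANXA2 at 13.7 and 17.5 FPKM and at 17.4 and 21.3 FPKM. Both treated libraries were above both controls for S100A10, as in 13.3% of all genes tested by CPM, while in FPKM the groups overlapped for ANXA2. The ratio of S100A10 to ANXA2 in FPKM was 0.317 and 0.502 in treated libraries and 0.214 and 0.15 in controls, without overlap. This ratio restates the differences of its parts, neither of which passed, and was itself not tested. S100A10 had a log2 fold change of 0.89 (SE 0.37; edgeR adjusted p = 0.999), and most of it lay in Bobcat339 2. S100A11 stood at 4.95 and 6.23 FPKM with Bobcat339 and 4.38 and 6.46 FPKM in the controls, with a log2 fold change of 0.02. It was thus more abundant per length than ANXA1 in all 4 libraries. S100A10 and S100A11 were named for their known pairing, outside the rule for naming genes, with their values in view.

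**Figure D5:**
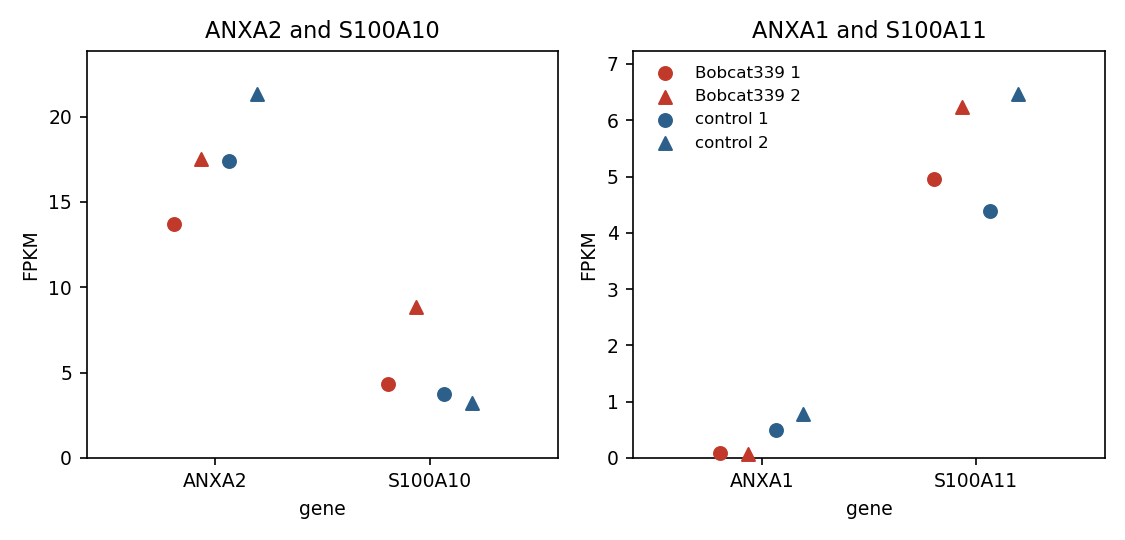
FPKM (vertical axis, linear from 0) of ANXA2 with its partner S100A10 and of ANXA1 with its partner S100A11 (horizontal axis) in each library: red for Bobcat339, blue for control, circles for replicate 1, triangles for replicate 2. S100A10 is at 4.33 and 8.81 FPKM with Bobcat339 and 3.73 and 3.20 FPKM in the controls, while S100A11 overlaps between the groups.

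Of 18 S100 genes listed 17 had a row and 9 were tested, of which 0 passed in either direction by edgeR. At an unadjusted p under 0.05 there was 1, S100A10, on the higher side, where 1.36% of all genes were. Their log2 fold changes had a median of −0.06, beside −0.02 over all genes. By CPM the leading genes were S100A14, at 52.3 CPM with a log2 fold change of 0.44, and S100A16, at 24.4 CPM with 0.43. For the formyl peptide receptors FPR1, FPR2 and FPR3, through which released ANXA1 signals, no row was found by name.

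Genes of the processes in which annexins act gave 0 passing members by edgeR in each list. Their counts at an unadjusted p under 0.05 stand beside 2.64% of all genes lower and 1.36% higher, and their medians beside −0.02; the members so counted were named after their values were seen. ANXA1 was first described as an inhibitor of phospholipase A2, and 7 of the 11 listed genes of phospholipase A2 and eicosanoid synthesis were tested. The median of their log2 fold changes was −0.52 (0 at an unadjusted p under 0.05). PLA2G4A, the cytosolic phospholipase A2 that releases arachidonate, stood at 80.9 and 97.0 CPM with Bobcat339 and 100 and 155 CPM in the controls. Its groups did not overlap, and its log2 fold change was −0.52 (SE 0.30; edgeR adjusted p = 0.999). PTGES3, a prostaglandin E synthase and HSP90 cochaperone, was the most abundant of the list at 208 CPM (−0.03).

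Membrane repair and ESCRT genes, which close plasma membrane wounds together with annexins, had 14 tested rows whose log2 fold changes had a median of −0.07 (1 at an unadjusted p under 0.05, AHNAK, higher). CHMP3, an ESCRT-III subunit, stood at 241 CPM (−0.33), and PDCD6, a calcium sensor that recruits ESCRT and binds annexins, at 169 CPM (−0.19). The phosphatidylserine list mixes genes that expose this ligand of ANXA5 with genes that return it inward, so its median gives no direction of exposure. That median was 0.17 over 13 tested members (1 at an unadjusted p under 0.05, the inward-moving flippase ATP11A, higher). The scramblase ANO6 was the most abundant of them (59.5 CPM, 0.07). Copines, another family of calcium-dependent phospholipid-binding proteins, had a median of −0.37 over 6 tested members (1 at an unadjusted p under 0.05, CPNE5, lower). CPNE5 had 0.204 and 0.291 CPM with Bobcat339 and 1.22 and 0.787 CPM in the controls. Like ANXA1 it entered the fit through the controls alone, so its call is no support for a difference. CPNE3 stood at 71.6 CPM (0.10) and CPNE1 at 48.4 CPM (−0.47). The plasminogen activation genes, whose products act on the cell surface with ANXA2 and S100A10, had a median of 0.63 over 4 tested members (1 at an unadjusted p under 0.05, PLAU, higher). SERPINE2, an inhibitor of plasminogen activators, stood at 19.8 CPM (0.42). The activator PLAU had 1.70 and 10.1 CPM in the treated libraries and 2.65 and 1.86 CPM in the controls, so that Bobcat339 2 alone was high.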

How the data were processed

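RNA of parthenogenetic porcine 4-cell embryos was sequenced with Smart-seq2, which does not mark strand, in 4 libraries, per the labels' protocols. Whole-number counts for each gene and FPKM values were deposited by the authors, per the file headers. Tools named, without roles, in the submitters' processing notes are HISAT2 2.0.5, HTSeq, Trimmomatic and DESeq2 1.16.1, with Sscrofa10.2 as the build. The coordinates follow Sscrofa11.1, in whose RefSeq annotation 98.8% of 14155 symbols compared overlap the gene of that name. The deposited FPKM follow the count totals within 1% between libraries, but the length behind them is within 1% of the deposited length for 44.9% of 15918 genes with at least 10 counts in each library; for ANXA2 it is 3232 against 7883 bases. The count of measurement columns that belong to no sample is 0.

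The members and gene lists were chosen with earlier results of these data known. Counts were fitted with edgeR 4.0.16 in R 4.3.3 (filterByExpr at a minimum count of 10, TMM, glmQLFit, glmQLFTest, Benjamini-Hochberg at 0.05 over the 18481 rows kept, which hold 99.73% of counts). Each interval rests on the fold change and its F statistic. The fit was tested on simulated data in which only genes with more counts than the rare annexins were changed. That test therefore does not cover transcripts as rare as ANXA1. Alternatives were DESeq2 1.42.0 on all rows with a count, limma-voom (limma 3.58.1), DESeq2 size factors, no scaling factor, no filter, at least 5 CPM in 2 libraries, the replicate number as a block and each library left out. The chi-square per gene was 12.5 between the treated and 48.2 between the control libraries, so neither pair is a set of reads deposited again. Without molecular identifiers in the reads, the Poisson intervals and floors cover only counting error. The intervals of log2 fold changes also take in the spread between libraries. Besides the annexins, the 2 most abundant members of each list were named, and the 3 genes nearest to ANXA1 by log2 CPM with a prior count of 2; other names are marked as such, and 1 gene is not reported here.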

Additional observations from a re-analysis of the deposited data

How the results depend on the processing

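The number of genes passing was 0 in edgeR with all 4 libraries, 5 with DESeq2, 44 with the replicate number as a block, and 0 to 586 with a library left out. It was 0 with limma-voom and under the other scalings and filters. Among the annexins 1 passed with the block and 0 to 1 passed with a library left out (1 without control 1); that one was ANXA1, whose difference chose the family and which entered through the controls alone, so its passing is no support. Its log2 fold change lay between −3.34 and −2.70 throughout, and the 5 CPM filter removed it. The numbers 1 and 2 are not said to pair the samples, and the correlation of the replicates' deviations between the groups was 0.159. Signs changed for ANXA4 (−1.64 to 1.40 with a library left out, −0.05 with limma-voom), ANXA7 (−0.23 to 0.33) and ANXA11 (−0.36 to 0.02), and for no other tested annexin; the cause was not tested. By CPM per kilobase of the deposited length 3 of the 9 annexins took another place in the order of levels, ANXA2 moving from place 2 to 4. With a library left out 0 to 4 changed place. Depth limits ANXA1, ANXA4, ANXA6, ANXA8 and ANXA10, which had 3 to 97 counts over the 4 libraries.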

Other observations

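Annexins outside the list of 10 had rows as well. ANXA9 is an annexin whose core lacks the usual calcium-binding sites. It stood at 18.3 and 19.8 CPM with Bobcat339 and 23.4 and 24.5 CPM in the controls. Its median was 2.21 FPKM, between ANXA11 and ANXA6. The length behind that FPKM is 9662 bases, against 2108 for ANXA7 and 3232 for ANXA2. The ANXA9 groups did not overlap, which held without a scaling factor and with DESeq2 size factors. The log2 fold change was −0.33 (SE 0.32; edgeR adjusted p = 0.999). MINDY1, on the opposite strand, overlaps its span and had 258 and 226 counts in the treated and 305 and 272 counts in the control libraries, and reads of the overlap cannot be assigned by strand here. ANXA13, an annexin of the intestine and kidney, had 4 and 5 counts with Bobcat339 and 5 and 5 counts in the controls, too few to be tested.

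A locus without a name, XLOC_031584 (chromosome 8: 73970525 to 74007735, plus strand), overlaps the place of ANXA3 in the Sscrofa11.1 RefSeq annotation. It had 29 and 21 counts in the treated libraries and 39 and 10 counts in the controls, and it was not counted as ANXA3.

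AHNAK, a giant scaffold protein that binds the complex of ANXA2 and S100A10, was named after its values were seen. Its main row stood at 9.26 and 11.3 CPM with Bobcat339 and 5.02 and 3.36 CPM in the controls. Both treated libraries lay above both controls, as in 13.3% of all genes tested. Whether this relates to S100A10 or ANXA2 was not tested. The log2 fold change of AHNAK was 1.29 (SE 0.39; edgeR adjusted p = 0.879).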
